A study of Mus musculus with 12 samples.

Results

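KDP20 at day 5 was set against vehicle in mouse nasal tissue. The comparison used the 4 libraries of the KDP20 day 5 group (replicates 5, 6, 7 and 8) and the 4 of the vehicle group (replicates 2, 4, 5 and 6). These are 8 of the 12 libraries in the series, assigned to the groups by their labels. By its title, the series profiled nasal inflammation brought on by diesel particles, and the labels do not say what KDP20 is. RNA sequencing reads were counted per gene.

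All mice were C57BL/6 males of 6 weeks, and no allele or other agent is named for either group. Vehicle mice received PBS and were labelled day 10, while the KDP20 mice were labelled day 5, so exposure and day of collection cannot be told apart. Total RNA was purified with an RNeasy kit and made into libraries with the SMARTER mRNA-Seq kit. The labels give the tissue as nasal and the cell type as nasal epithelium. They do not tie libraries to animals, so a p-value here covers only the spread among libraries, which may be technical.

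Total counts ran from 1993550 to 3227138 per library. Levels are given as CPM, the count scaled to the TMM-adjusted library size. For counting error alone, 3 counts, taken as the floor of detection, equal 0.930 to 1.50 CPM of the raw totals. Within a group, the variance between 2 libraries was 3.17 to 6.90 times that of counting, and each was kept as its own sample. Rows named for markers of several nasal cell types held counts, with the limit on strands given below. Epcam, an epithelial adhesion molecule, had 18.8 ± 2.13 CPM in vehicle and 26.3 ± 5.61 at day 5 (mean ± SD, n = 4, as throughout). Muc5ac, a goblet cell mucin, had 107 ± 49.8 and 83.3 ± 22.8 CPM, and Omp, which marks mature olfactory neurons, 29.1 ± 11.9 and 24.8 ± 8.24 CPM. The tissue is a mixture, and in such samples fewer cells of a type and less RNA per cell cannot be told apart.

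Rows of the count table were read by what lies on the other strand. Cyp2f2, an abundant P450 enzyme of airway secretory cells, had 77.0 ± 27.6 CPM in its own row in vehicle. The row Gm15883, on the strand opposite to it, had 24278 ± 3181 CPM. In vehicle, the own rows of Ftl1, Gnal, Krt5 and Krt8 had 8.23, 115, 5.47 and 8.96 CPM. Their opposite rows had 3461, 4116, 384 and 122 CPM. Not all pairs were so, as the own row of Prc1, given below, was above its opposite row. Which strand was counted was not tested. The strand setting of the counting is not given in the sources used here, so where a row overlaps exons of another gene on the other strand, it is given under that opposite gene. Such a value may stem from either gene, since the strand that each row counted is not known. A gene's own row is given too, named as such, and its value may likewise not stem from that gene. Some own rows also overlap another gene, which is then named.

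By this reading, rows opposite protein-coding genes were mostly higher at day 5 and rows without an opposite gene mostly lower. Of 12574 rows tested with the quasi-likelihood test of edgeR, 656 were called at a Benjamini-Hochberg adjusted p under 0.05 (5.22%). Of these 411 were higher (3.27%) and 245 lower (1.95%), while 2639 rows passed 0.05 before adjustment. Of 3920 rows opposite protein-coding genes that were tested, there were 360 rises (9.18%) and 32 falls (0.816%), with a median log2 fold change of 0.18. Among the 7162 rows with no opposite gene, 38 were called higher (0.531%) and 190 lower (2.65%), with a median of -0.14. The groups did not overlap in 17.6% of rows opposite protein-coding genes. The number of calls leaned on single libraries: it was 94, 334 and 382 without vehicle replicate 2, 4 or 6, 1050 without vehicle replicate 5, and 135 and 362 without day 5 replicate 5 or 6.

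This balance moved with the share of counts that each class of rows took, and with the scaling. Rows opposite protein-coding genes held 57.2%, 56.8%, 60.1% and 57.7% of counts in vehicle replicates 2, 4, 5 and 6. They held 62.1%, 61.1%, 61.2% and 61.7% in day 5 replicates 5, 6, 7 and 8. The groups did not overlap, and the difference of 3.54 points had p 0.0286 by a two-sided exact permutation test, the smallest that 4 against 4 can give (0.0619 adjusted over 13 library measures). The Wilson 95% interval of each share was no wider than 0.0680 points on either side, for counting error alone. When the scaling factors were computed on rows opposite protein-coding genes alone, the median over all tested rows moved from -0.02 to -0.20. Calls then became 171 higher (1.36%) and 1015 lower (8.07%), in all 9.43% of rows. Opposite protein-coding genes they were 148 higher (3.78%) and 169 lower (4.31%), and without an opposite gene 16 higher and 718 lower (10.2% together). Opposite protein-coding genes, 148 rises and 32 falls were called under both scalings, and no call changed direction. Results below are given with this second scaling, called the coding-row scaling, beside the main one (TMM) for the counts of each list and for named rows whose call differs. Of 120 calls of named rows, 97 held with it, 35 when each library was left out in turn, 42 without day 5 replicates 6 and 8, 56 with the muscle level as a covariate, and 3 with the share of the largest row, CT010467.2, as one.

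**Figure D1:**
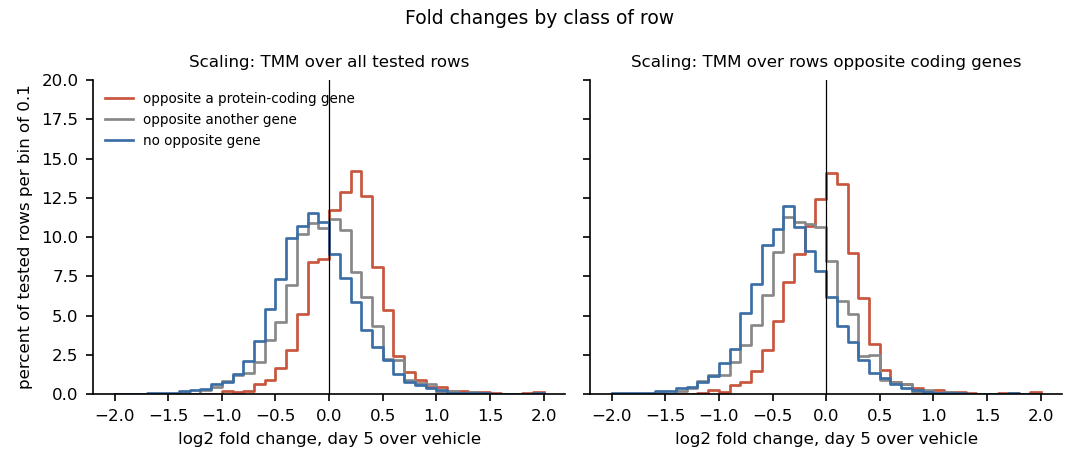
Distribution of log2 fold change (x axis, day 5 over vehicle) as percent of tested rows per bin of 0.1 (y axis) for the 3 classes of rows, under each scaling; values beyond the axis are counted in the end bins. Rows opposite a protein-coding gene lie to the right of rows with no opposite gene in both panels, with medians of 0.18 and -0.14 in the left panel.

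Cell division is read here from genes of its successive steps. Replication-dependent histone genes are transcribed while DNA is copied, to package the new strands, and most of their mRNAs end in a stem-loop in place of a poly(A) tail. Mitosis genes are transcribed later, and build the spindle, condense chromosomes and separate daughter cells. In the nose, basal cells of the olfactory and respiratory epithelium divide to replace neurons and surface cells.

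Rows opposite S phase histone genes were higher at day 5. Of 67 listed histone genes, 20 had an opposite row and 15 of these passed the filter on low counts. Of the 15, 12 were called higher and 0 lower, with a median log2 fold change of 0.97, against 9.18% called higher and a median of 0.18 for all rows opposite protein-coding genes. With the coding-row scaling, 10 were called higher and the median was 0.80. Hist1h2af encodes a core histone of the H2A family. The row opposite it, Gm44297 (chr13:23534114-23534254, GRCm38), gave 44.8, 40.8, 45.4 and 56.6 CPM in vehicle replicates 2, 4, 5 and 6, and 165, 137, 145 and 186 CPM in day 5 replicates 5, 6, 7 and 8. The lowest day 5 library stood far above the highest vehicle library. The log2 fold change was 1.76 (SE 0.14, adjusted p 6.00e-08), or 1.58 with the coding-row scaling.

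The H4 gene Hist1h4b is read through a longer row. 4930558J22Rik (chr13:23755822-23757620) gave 52.9, 50.04, 59.2 and 46.3 CPM in vehicle and 129, 106, 116 and 136 CPM at day 5, in the same order of replicates. Again the groups did not overlap, and the log2 fold change was 1.23 (SE 0.13, adjusted p 1.75e-05; 1.05 with the coding-row scaling). Further called rows opposite H2A genes of the same chromosome 13 cluster behaved alike. The row opposite Hist1h2ak went from 101 ± 9.78 to 199 ± 31.7 CPM (log2 fold change 0.97, SE 0.13, adjusted p 2.52e-04), and that opposite Hist1h2ab from 18.4 ± 2.63 to 47.4 ± 12.8 CPM (1.35, SE 0.21, 0.00155). Hist1h2ag, Hist1h2ae, Hist1h2an and Hist1h2ac rose by 1.66, 1.57, 1.46 and 1.04. None of these rows had groups that overlapped.

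Among called rows, the smaller rises lay outside that cluster. The row opposite Hist2h3b, an H3 gene of chromosome 3, gave 363, 439.6, 562 and 434 CPM in vehicle and 754, 655, 695 and 882 CPM at day 5 (log2 fold change 0.73, SE 0.12, adjusted p 0.00335). It was the most abundant histone row. Hist3h2a rose by 0.59, Hist2h2ac by 0.52 and Hist2h2aa2 by 0.47, of which Hist2h2ac (adjusted p 0.0852) and Hist2h2aa2 (0.133) were not called with the coding-row scaling. Hist2h2aa1 (0.39, adjusted p 0.125), Hist1h2ai (0.59, 0.552), itself a Hist1 gene, and Hist2h2ab (0.27, 0.573) did not pass. Hist2h2aa1 and Hist2h2aa2 are near-identical copies, and the H2A genes resemble each other, so counts could be split or shared among these rows. By the own rows of listed histone genes, 0 of 10 tested were called by edgeR, with a median of 0.26, and their median level in vehicle was 7.60 CPM.

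**Figure D2:**
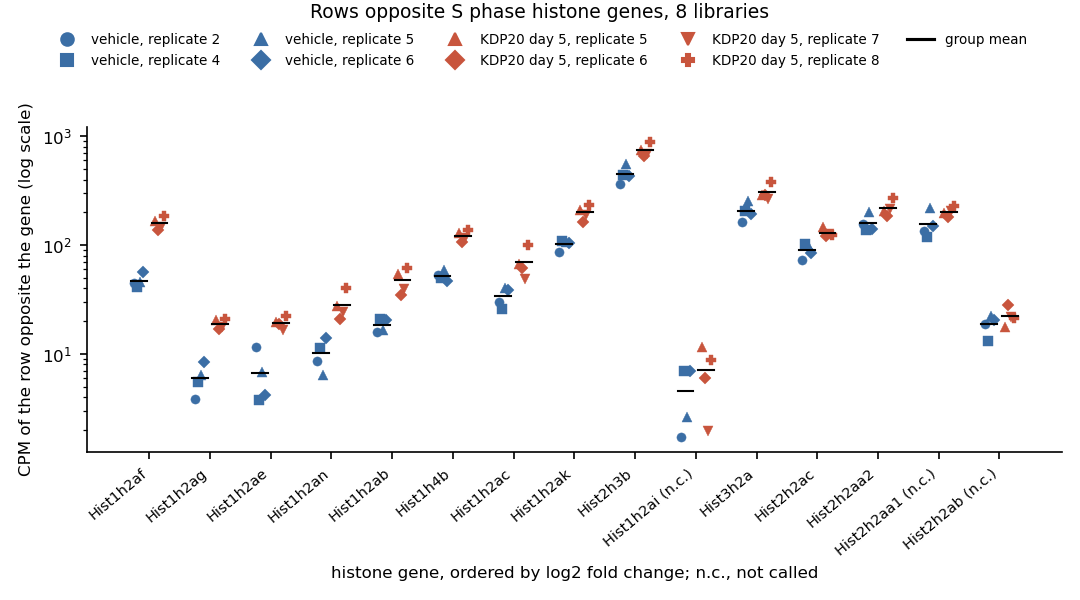
CPM (y axis, log scale) of the rows opposite the 15 tested S phase histone genes (x axis) in the 4 vehicle (blue) and 4 day 5 (red) libraries, with marker shape giving the replicate and bars the group means. The day 5 points stand above the vehicle points for Hist1h2af (137 to 186 against 40.8 to 56.6 CPM) and mix with them for Hist2h2aa1, Hist1h2ai and Hist2h2ab.

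The day 5 libraries were even for this group of genes. The mean log2 CPM over the 15 histone rows was 5.20, 5.30, 5.46 and 5.46 in vehicle replicates 2, 4, 5 and 6, and 6.38, 6.16, 6.10 and 6.57 in day 5 replicates 5, 6, 7 and 8. Of the 12 calls, 9 held when each of the 8 libraries was left out in turn. Without day 5 replicates 6 and 8, in which muscle rows were high, 7 histone rows were called. A model with each library's CT010467.2 share as a covariate left 3, namely those opposite Hist1h2af (1.74, adjusted p 3.06e-05), Hist1h4b (1.28, 0.00186) and Hist1h2ak (1.03, 0.0114). CT010467.2 is the largest row by mean. It took 8.66% ± 1.55 of counts in vehicle and 10.9% ± 1.33 at day 5 (p 0.143 by a two-sided exact permutation test), and its part in these rises was not tested further.

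For 4 genes outside the naming rule, the choice to name them came after their values were known. That opposite H2afx, a histone variant that marks DNA breaks, rose to 116 ± 16.1 from 51.9 ± 11.3 CPM (1.17, SE 0.15, adjusted p 2.52e-04). That opposite H1f0, a linker histone of resting cells, rose by 0.70 (SE 0.13, 0.00604). The rows opposite Sgo2a, which protects centromeric cohesion, and Ccnd1, the cyclin of G1 phase, rose by 0.74 (SE 0.13, 0.00518) and 0.67 (SE 0.13, 0.00840).

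Rows opposite mitosis genes were also higher at day 5. Of 72 listed mitosis genes, 15 had an opposite row and 11 of these passed the filter. Of the 11, 7 were called higher and 0 lower, with a median of 0.88, and 6 with the coding-row scaling (median 0.71). In 7 of the 11 the groups did not overlap. Over all rows opposite protein-coding genes, 9.18% were called higher and 17.6% did not overlap. Prc1 bundles microtubules of the central spindle. Its opposite row, Rccd1, gave 58.5, 66.5, 84.0 and 75.3 CPM in vehicle replicates 2, 4, 5 and 6, and 133, 114, 144 and 132 CPM in day 5 replicates 5, 6, 7 and 8. All day 5 libraries were above all vehicle libraries (log2 fold change 0.88, SE 0.13, adjusted p 0.00131). The own row of Prc1 went the other way, from 116 ± 18.6 to 74.1 ± 15.7 CPM (-0.65, SE 0.15, adjusted p 0.0158).

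Kif20a is a kinesin of the cleavage furrow. Its opposite row, Cdc23, gave 41.7, 33.5, 31.2 and 41.2 CPM in vehicle and 84.7, 60.3, 73.4 and 81.6 CPM at day 5 (1.02, SE 0.16, adjusted p 0.00155). Ncapg is a subunit of condensin, which compacts chromosomes. The row opposite it, Lcorl, gave 13.8, 11.6, 15.3 and 19.6 CPM in vehicle and 33.3, 33.4, 32.1 and 38.0 CPM at day 5 (1.20, SE 0.21, 0.00475). In both rows the groups stood apart. The row opposite Ccna2, cyclin A, rose to 60.4 ± 11.3 from 33.1 ± 7.39 CPM (0.88, SE 0.18, 0.0102).

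The other rises were smaller in counts. The row opposite Plk1, the mitotic polo kinase, gave 4.73, 6.07, 4.23 and 12.6 CPM in vehicle and 19.96, 16.9, 14.6 and 17.2 CPM at day 5 (1.31, SE 0.33, adjusted p 0.0224). The row opposite the chromosome kinesin Kif4 overlapped between groups, since day 5 replicate 6 gave 4.98 CPM and vehicle replicate 4 gave 5.21 (1.82, SE 0.45, 0.0221). Cdc25b, a phosphatase that starts mitosis, rose by 0.70 (SE 0.18, 0.0224), but by 0.52 (adjusted p 0.0699) with the coding-row scaling. Tacc3 (0.72, adjusted p 0.108), Ckap2l (0.64, 0.132), Nek2 (0.17, 0.665) and Nusap1 (-0.01, 0.994) did not pass. By own rows 0 of 17 listed mitosis genes were called higher and 1, Prc1, lower. Of the 7 calls, 3 held when each library was left out in turn. The count was 3 without vehicle replicate 2 and 4 without day 5 replicate 5. When the model held each library's CT010467.2 share, edgeR called 0 of the 11, at a median of 0.82.

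**Figure D3:**
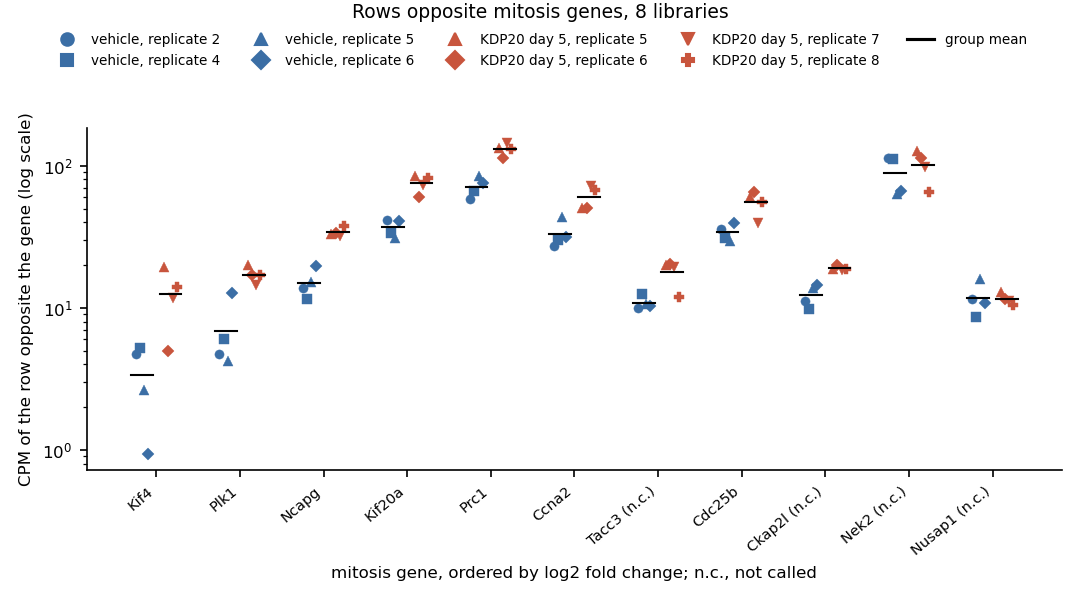
CPM (y axis, log scale) of the rows opposite the 11 tested mitosis genes (x axis) in the 8 libraries (vehicle blue, day 5 red), with marker shape giving the replicate and bars the group means. Prc1, Kif20a, Ncapg and Ccna2 show groups that do not overlap, while Nek2 and Nusap1 show groups that do.

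Promoter windows of the genes opposite called rows are shown for sequence elements that cell-cycle genes often carry. RefSeq windows (GRCm38.p6, 250 bases before to 50 after the start) were matched for 12 of the 12 histone genes and 5 of the 7 mitosis genes. The cell-cycle homology region was searched as TTTGAA and the CCAAT box as CCAAT, both on either strand. TTTGAA was found for 20.2% of all 27025 genes with a window, for 5 of the 12 histone genes and for 4 of the 5 mitosis genes. CCAAT was found for 41.1% of all genes, for 11 of the 12 histone genes and for 5 of the 5 mitosis genes. A match describes the letters in the window and is no test of binding. In the sequences below, written 5′ to 3′ on the gene's strand, capitals mark these motifs on either strand, and no 2 matches overlap.
Plk1, chr7:122159185-122159484, plus strand: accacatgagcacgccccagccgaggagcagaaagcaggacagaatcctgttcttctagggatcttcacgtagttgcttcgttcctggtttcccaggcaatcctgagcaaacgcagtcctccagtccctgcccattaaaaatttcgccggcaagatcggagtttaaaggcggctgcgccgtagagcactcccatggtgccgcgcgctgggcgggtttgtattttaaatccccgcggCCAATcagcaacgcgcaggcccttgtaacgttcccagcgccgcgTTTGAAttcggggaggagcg
Ncapg, chr5:45669675-45669974, plus strand: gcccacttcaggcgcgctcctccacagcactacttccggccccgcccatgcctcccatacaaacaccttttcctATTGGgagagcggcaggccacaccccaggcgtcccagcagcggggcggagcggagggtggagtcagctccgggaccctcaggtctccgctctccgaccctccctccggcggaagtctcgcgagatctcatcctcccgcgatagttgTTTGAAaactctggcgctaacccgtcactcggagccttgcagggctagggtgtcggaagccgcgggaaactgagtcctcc
Prc1, chr7:80294201-80294500, plus strand: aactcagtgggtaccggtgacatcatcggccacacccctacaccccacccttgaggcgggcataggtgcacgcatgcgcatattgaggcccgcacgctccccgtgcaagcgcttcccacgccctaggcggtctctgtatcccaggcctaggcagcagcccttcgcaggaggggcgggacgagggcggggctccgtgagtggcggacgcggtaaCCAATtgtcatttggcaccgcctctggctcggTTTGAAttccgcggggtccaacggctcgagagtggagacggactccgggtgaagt
Kif4, chrX:100625815-100626114, plus strand: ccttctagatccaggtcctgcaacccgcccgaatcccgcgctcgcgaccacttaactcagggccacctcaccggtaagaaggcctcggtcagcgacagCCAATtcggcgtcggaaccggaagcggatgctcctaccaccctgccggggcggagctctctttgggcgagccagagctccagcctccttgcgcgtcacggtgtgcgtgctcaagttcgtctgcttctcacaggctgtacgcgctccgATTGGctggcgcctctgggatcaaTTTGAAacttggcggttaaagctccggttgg
Hist1h2af, chr13:23533625-23533924, plus strand: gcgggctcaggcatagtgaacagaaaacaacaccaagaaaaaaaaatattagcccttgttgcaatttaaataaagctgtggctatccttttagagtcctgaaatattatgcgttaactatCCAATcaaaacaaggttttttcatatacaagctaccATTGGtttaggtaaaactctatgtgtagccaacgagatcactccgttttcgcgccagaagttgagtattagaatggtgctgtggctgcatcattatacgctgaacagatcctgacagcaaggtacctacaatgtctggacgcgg
Hist1h4b, chr13:23756687-23756986, plus strand: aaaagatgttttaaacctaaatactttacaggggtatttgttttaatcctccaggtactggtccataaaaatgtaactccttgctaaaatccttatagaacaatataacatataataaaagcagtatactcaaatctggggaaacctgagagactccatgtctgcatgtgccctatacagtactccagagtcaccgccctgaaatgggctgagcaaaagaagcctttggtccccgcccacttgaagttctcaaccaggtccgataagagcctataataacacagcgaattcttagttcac
The 4 mitosis promoters shown each hold 1 TTTGAA with a CCAAT match, on either strand, before it. The matched mitosis promoter not shown, that of Cdc25b, holds 0 TTTGAA and 1 CCAAT match. That of Hist1h2af holds CCAAT on both strands, and that of Hist1h4b holds neither motif.

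DNA replication genes gave a single call. Of 11 rows opposite them, 1 was called higher and 0 lower under both scalings, with a median of 0.35, a share near the 9.18% of all rows opposite protein-coding genes. Fen1 encodes the nuclease that trims Okazaki fragments. The row opposite it gave 166, 125, 184 and 188 CPM in vehicle and 269, 243, 248 and 289.6 CPM at day 5, with no overlap (log2 fold change 0.67, SE 0.12, adjusted p 0.00541). Mcm7, of the replicative helicase, had 0.76 (adjusted p 0.0967), and Slbp, which binds the histone mRNA stem-loop, 0.52 (0.194). By own rows 1 of 19 was called higher, Gins2 (0.40, adjusted p 0.0283), whose row lies opposite Gse1. It was not called with the coding-row scaling (0.0606), where 2 of the 19 were called lower. Of all tested rows, 3.27% were called higher under TMM and 8.07% lower with the coding-row scaling, so these shares are near those of all rows. The proliferation marker Mki67 had 13.8 ± 6.67 and 14.0 ± 2.17 CPM in its own row (-0.03, adjusted p 0.974).

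Rows opposite 2 keratin genes and 1 desmosome gene were called higher at day 5, with the highest keratin levels in 2 libraries. Basal and squamous epithelium, with 5 opposite rows tested, had 3 called higher and 0 lower under both scalings (median 1.21). Among all rows opposite protein-coding genes, 9.18% were called higher under TMM and 3.78% with the coding-row scaling. Krt5 is the keratin of basal cells. The row opposite it gave 315, 553, 339 and 329.7 CPM in vehicle and 617, 1124, 411 and 799.8 CPM in day 5 replicates 5, 6, 7 and 8 (0.94, SE 0.21, adjusted p 0.0138). Day 5 replicate 7 lay below vehicle replicate 4, so the groups overlapped. Krt6a, a keratin of stressed and dividing epithelium, gave 131, 172, 53.9 and 29.5 CPM in vehicle and 170.3, 421, 151 and 325 CPM at day 5 (1.43, SE 0.34, 0.0179). Its highest values were again in replicates 6 and 8. Desmoplakin (Dsp) anchors keratins at desmosomes. The row opposite it was even across day 5 libraries, at 244, 264, 212 and 216 CPM, against 164, 128, 187 and 156 in vehicle (0.57, SE 0.12, 0.0124). By own rows edgeR called 0 of 11 listed genes, and 1 lower with the coding-row scaling, Itgb4 (-0.48, 0.0476), an integrin subunit of basal cells. That scaling called 8.07% of all tested rows lower.

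The same 2 libraries held most of the skeletal muscle signal. The row opposite Ckm, muscle creatine kinase, gave 1.33, 297, 1.46 and 436 CPM in day 5 replicates 5, 6, 7 and 8, and 2.15, 43.1, 8.98 and 8.89 in vehicle replicates 2, 4, 5 and 6. The rows opposite Ttn and Atp2a1 were alike, and day 5 replicates 5 and 7 lay below the vehicle mean in all 3. Of 7 rows opposite muscle genes, 5 were called higher under both scalings, and the rows opposite Mb and Myh7 were not. The share called higher of all rows opposite protein-coding genes was 9.18% under TMM and 3.78% with the coding-row scaling. Without day 5 replicates 6 and 8 the log2 fold change went from 3.37 to -3.53 for Ckm, from 3.09 to -2.97 for Ttn and from 3.10 to -1.26 for Atp2a1. Mean log2 CPM over the 7 rows was 3.06, 5.59, 2.72 and 6.15 at day 5 and 2.58 to 3.94 in vehicle. The row opposite an erythroid gene had a log2 CPM of 5.64 ± 0.172 in vehicle and 5.68 ± 0.325 at day 5, and the 3 rows opposite cartilage and bone genes had means of 6.16 ± 0.248 and 6.31 ± 0.133.

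Some calls moved with these libraries. Without replicates 6 and 8, Krt5 had 0.43 (adjusted p 0.254) and Krt6a 0.71 (0.286), where the rows opposite Hist1h2af and Hist1h4b kept 1.75 (2.46e-07) and 1.25 (1.72e-04). The row opposite Mybpc1, a myosin-binding protein of slow muscle, gave 8.43, 19.4, 8.26 and 37.4 CPM at day 5 against 3.01 to 4.68 in vehicle (2.19, SE 0.44, adjusted p 0.00840). It had 1.08 (0.318) without those libraries. The row opposite Ostn, which encodes the hormone musclin, gave 19.1, 14.9, 15.1 and 20.3 CPM against 4.73, 3.76, 7.40 and 3.27 (1.88, SE 0.33, 0.00419). It kept 1.87 (0.0222) without them.

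**Figure D4:**
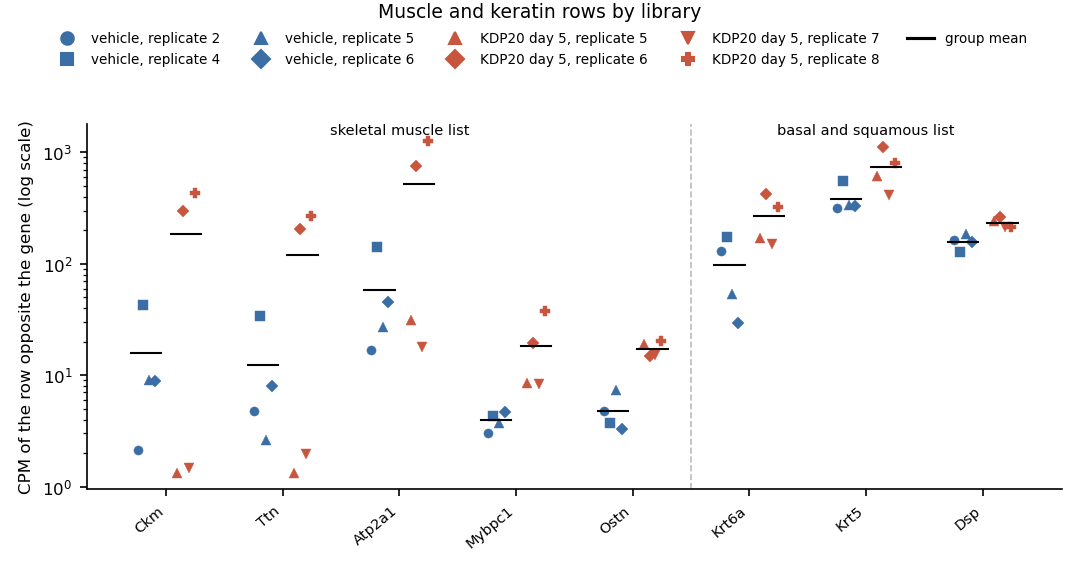
CPM (y axis, log scale) of rows opposite 5 skeletal muscle genes and 3 basal or squamous epithelium genes (x axis) in the 8 libraries (vehicle blue, day 5 red), with marker shape giving the replicate and bars the group means. Day 5 replicates 6 and 8 are highest for Ckm, Ttn, Atp2a1, Krt6a and Krt5, while the day 5 libraries lie together for Ostn (14.9 to 20.3 CPM) and Dsp (212 to 264 CPM).

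Some matrix rows rose as well. Of 11 rows opposite extracellular matrix and remodelling genes, 5 were called higher and 0 lower (median 0.56), and 2 higher with the coding-row scaling, where 9.18% and 3.78% of all rows opposite protein-coding genes were called higher. Fibronectin (Fn1), a matrix glycoprotein of wounds, gave 176, 167, 263 and 251 CPM in vehicle and 411, 454, 333 and 294 CPM at day 5 (0.81, SE 0.15, adjusted p 0.00541). Elastin (Eln) gave 19.8, 18.8, 28.0 and 29.0 against 49.2, 64.8, 34.0 and 36.4 CPM (0.97, SE 0.22, 0.0143). Neither row overlapped between groups, and both were called under both scalings. Without day 5 replicates 6 and 8, Fn1 kept 0.81 (0.0126) and Eln had 0.83 (0.0911). The rows opposite tenascin C (Tnc, 0.47) and the collagen-modifying Plod2 (0.57) were called under TMM alone. Of 2 rows opposite the collagen gene Col5a1, Gm13372, counted here, was called under TMM alone (0.72), and 2810430I11Rik under both scalings (0.64, 0.0201, and 0.47, 0.0436). By own rows Col4a1, of basement membranes, rose by 1.47 (adjusted p 0.0312), while Hmcn2 (-1.35, 0.00604) fell. The row of the protease inhibitor Timp3, which overlaps Syn3 on the other strand, also fell (-0.39, 0.0275). Of the 28 own rows, 1 was called higher and 4 lower with the coding-row scaling. Of all tested rows, that scaling called 1.36% higher and 8.07% lower.

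Olfactory genes moved in both directions. Immature neurons arise from dividing basal cells and switch on genes such as Sox11 and Insm1 before they mature. Of 17 own rows of this list, 4 were called higher and 1 lower (median 0.39), against 3.27% and 1.95% of all tested rows. The row of Sox4, a factor of progenitors, overlaps Gm26735 on the other strand and rose to 48.5 ± 7.01 from 27.4 ± 2.63 CPM (0.83, SE 0.17, adjusted p 0.0112). Sox11 (1.07), Insm1 (1.42) and Nhlh2 (1.14) also rose, and the actin-binding Dbn1 fell (-0.64, 0.00541). With the coding-row scaling 1 was called higher, Sox4, and 1 lower, against 1.36% and 8.07% of all tested rows. The 2 opposite rows of the list, Mex3a and Gnas, were called higher under both scalings. Mex3a, an RNA-binding protein of progenitors, gave 30.1, 19.1, 31.7 and 34.1 CPM in vehicle and 65.6, 45.3, 62.7 and 90.0 at day 5 (1.22, SE 0.20, 0.00334).

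Rows opposite mature neuron genes gave 2 calls under TMM, and those opposite supporting cell genes more falls than rises. Of 10 rows opposite olfactory sensory neuron genes, 2 were called higher, Emx2 (0.75, adjusted p 0.0266) and Uchl1 (0.65, 0.0275), and neither with the coding-row scaling. Among all rows opposite protein-coding genes, 9.18% were called higher under TMM. Gnal, the G protein of odour transduction, had 4116 ± 514 and 3769 ± 535 CPM through its opposite row (-0.13, 0.577). That row was called lower with the coding-row scaling (-0.29, 0.0471), the 1 such call of the 10. Of 7 rows opposite sustentacular and Bowman gland genes, 3 were called lower and 1 higher under both scalings, where 0.816% of rows opposite protein-coding genes were called lower. Carns1, which makes carnosine, gave 2381, 2513, 2808 and 2436 CPM in vehicle and 1930.4, 2178, 1847 and 2046 CPM at day 5, with no overlap (-0.34, SE 0.10, 0.0441). Ermn fell by 0.58 on the log2 scale (0.0499), with overlapping groups. The row opposite Krt8, a keratin of simple epithelium, rose by 0.62 (0.0142). Among olfactory receptor genes, edgeR called 0 of 20 own rows (median -0.23) and 0 of 7 opposite rows (median -0.07).

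Ciliated and secretory cell genes gave single calls. Of 8 rows opposite ciliated cell genes, Tubb4b, a tubulin of the axoneme, rose (0.47, adjusted p 0.0156) and 0 fell, but 2 fell with the coding-row scaling. Those were the dynein Dnah11 (-0.42, 0.0134) and Ccdc39 (-0.39, 0.00965), which had -0.24 (0.201) and -0.21 (0.210) under TMM. Among all rows opposite protein-coding genes, 9.18% were called higher under TMM and 4.31% lower with the coding-row scaling. By own rows Dnah11 rose by 0.65 (0.0477), though not with the coding-row scaling (0.125), and Tppp3, a tubulin-binding protein, fell to 62.8 ± 12.9 from 104 ± 30.0 CPM (-0.73, 0.0188). Of the 22 own rows, 4 were called lower and 0 higher with the coding-row scaling, where 8.07% of all tested rows were called lower. The row of Dnah11 overlaps Cdca7l on the other strand. Muc5b, the main gel-forming airway mucin, gave 328, 415, 346 and 318 CPM in vehicle and 290.1, 249, 274 and 244 CPM at day 5 in its own row (-0.41, SE 0.11, 0.0307). No day 5 library reached the lowest vehicle library. Muc5ac had -0.38 (0.355) in its own row. The row opposite Cyp2f2 had 27749 ± 2809 CPM at day 5 against 24278 ± 3181 (0.19, 0.340). The row named Muc20, opposite the membrane mucin Muc4, rose by 0.70 (0.0160), but was not called with the coding-row scaling (0.0650).

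Some rows opposite genes of metal binding and growth arrest were called higher. The iron store is held by ferritin, and metallothioneins bind zinc and other metals. The row opposite ferritin light chain (Ftl1) gave 3310.1, 2969, 4051 and 3516 CPM in vehicle and 5739, 5805, 4687 and 4708 CPM at day 5 (0.60, SE 0.11, adjusted p 0.00541), with no overlap. The row opposite metallothionein 2 (Mt2) gave 1637, 1304, 2268 and 1824 against 3242, 2116, 2749 and 2645 CPM, with overlap (0.61, SE 0.14, 0.0145). Both were called under both scalings, as 2 of 5 iron and zinc rows, where 9.18% of all rows opposite protein-coding genes were called higher under TMM. With the coding-row scaling 1 of the 5 was called lower, opposite the iron oxidase ceruloplasmin (Cp, -0.48, 0.0302), which had -0.29 (0.205) under TMM. Of 4 rows opposite p53 and immediate early genes, 3 were called higher, Gadd45a (0.76, 0.0116), Cdkn1a, which halts the cell cycle (0.60, 0.0297), and Jund (0.39, 0.0465). Only Gadd45a was called with the coding-row scaling, 1 of 4 where the share of all such rows was 3.78%.

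The aryl hydrocarbon receptor (Ahr) senses aromatic compounds of combustion, pairs with Arnt and drives Cyp1 genes. Rows opposite Ahr (0.39, adjusted p 0.0732) and its target and repressor Tiparp (0.21, 0.604) did not pass. Arnt gave 12.5, 13.015, 13.2 and 8.89 CPM in vehicle and 2.66, 3.99, 3.40 and 4.68 CPM at day 5 in its own row (-1.69, SE 0.37, 0.0124). Its groups stood apart at a low level. Cyp1a1, Cyp1b1, Ahrr, Nqo1 and Hmox1 were read through own rows alone, with at most 17, 7, 16, 11 and 3 counts in any library. They were not tested, so neither their level nor a change could be read here. Of 4 rows opposite antioxidant genes, 1 was called higher under both scalings and 0 lower (median 0.11). It lies opposite G6pdx, the first enzyme of the pentose phosphate pathway, and rose by 0.60 (0.0112). Of 21 own rows, 1 was called lower (median -0.05), and 2 with the coding-row scaling. The row of Pon2, which overlaps Gm44424 on the other strand, fell by 1.07 (SE 0.19, 0.00420). Under TMM 9.18% of all rows opposite protein-coding genes were called higher. Of all tested rows, 1.95% were called lower under TMM and 8.07% with the coding-row scaling.

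Immune genes gave calls in both directions. Of 6 rows opposite antigen presentation genes, 2 were called higher, the immunoproteasome subunit Psmb8 (0.82, SE 0.17, adjusted p 0.0112) and Tapbp (0.45, 0.0340), the latter not with the coding-row scaling (0.0779). Among all rows opposite protein-coding genes, 9.18% were called higher under TMM. By own rows the chemokine Cxcl14 rose by 1.08 (0.0379) and the row of the eosinophil cytokine Il5, which overlaps Gm12214 on the other strand, fell to 7.25 ± 0.858 from 14.6 ± 2.77 CPM (-1.02, 0.0466). Cxcl14 was not called with the coding-row scaling (0.0682), where 0 of the 11 cytokine and chemokine rows were called higher and 2 lower. That scaling called 8.07% of all tested rows lower. The own rows of the immune checkpoint receptor Vsir (-0.82, 0.00481) and the inhibitory receptor Cd300lf (-0.90, 0.00580) fell. These were 2 of 9 own rows of macrophage genes, where 1.95% of all tested rows were called lower. Il1b had -0.50 (0.295) in its own row. By edgeR, 0 of 5 neutrophil, 0 of 3 T and NK cell and 0 of 7 interferon response own rows were called. With the coding-row scaling 1 of the 5 neutrophil rows was called lower, the protease Mmp9 (-0.43, 0.0327), which had -0.25 (0.287) under TMM. Il6, Tnf, Cxcl1, Il33 and Tslp were read through own rows alone, had at most 2, 2, 5, 10 and 1 counts and were not tested.

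Housekeeping lists also stood above the median of 0.18 for all rows opposite protein-coding genes. Of 20 rows opposite oxidative phosphorylation genes 6 were called higher (median 0.41), and 3 higher and 1 lower with the coding-row scaling. Over all rows opposite protein-coding genes, 9.18% were called higher under TMM. With the coding-row scaling, 3.78% of those were called higher and 4.31% lower. Of 13 opposite ribosomal protein genes 3 were called higher under both (median 0.30), Rpl23a by 0.54, Rpl30 by 0.59 and Rpl35 by 0.45. The histone and mitosis medians of 0.97 and 0.88 lay above these.

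**Figure D5:**
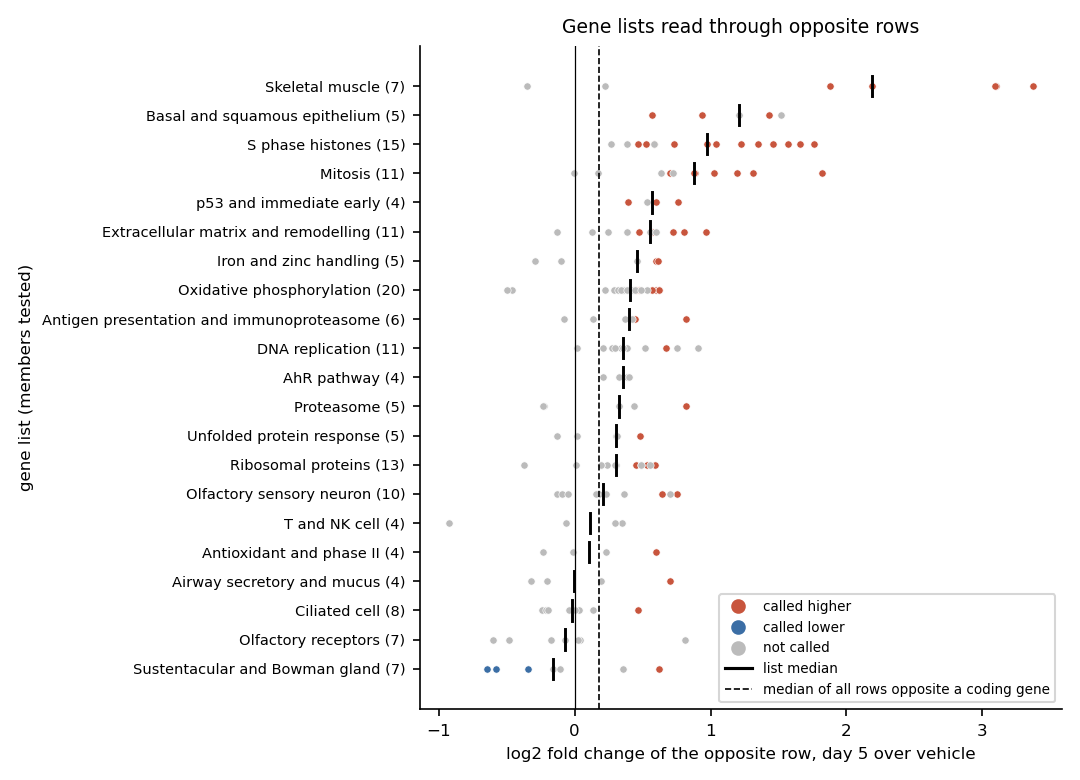
Log2 fold change (x axis, day 5 over vehicle) of each tested row opposite a listed gene, by list (y axis, members tested in brackets), coloured by call, with the list median as a bar and the median of all rows opposite protein-coding genes (0.18) as a dashed line. Lists with at least 4 rows are shown. Muscle, basal, histone and mitosis medians lie furthest right and the sustentacular list furthest left, at -0.16.

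Among the 15 largest rises that the naming rule picks opposite protein-coding genes, 6 were histone genes. The others include Akr1b7, an aldo-keto reductase, at 18.2, 31.4, 13.1 and 54.1 CPM against 8.61, 8.39, 1.06 and 10.8 (1.96, SE 0.41, adjusted p 0.0109). It was highest in day 5 replicates 6 and 8, without which it had 1.09 (0.228). Hrh3, a histamine receptor, rose by 1.92 (0.0224), Dhh, a hedgehog ligand made by Schwann cells, by 1.35 (0.00472) and E2f8, a repressor of S phase genes, by 1.24 (0.0349). E2f8 was not called with the coding-row scaling (0.0660). Soga3 rose by 1.43 (0.00131). Without those libraries Dhh kept 1.35 (0.0187) and Soga3 1.40 (0.00339). Of the 15, 12 held when each library was left out in turn.

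The 15 largest falls opposite protein-coding genes were smaller, from -0.46 to -0.90. They included Tctn1, of the base of cilia (66.5 ± 7.92 to 38.7 ± 7.07 CPM, -0.79, SE 0.16, adjusted p 0.0108), the kinase Cdkl4 (-0.81, 0.0358) and Abhd14b (-0.90, 0.0417). Xrcc6, a subunit of the Ku complex in DNA break repair, gave 207, 201, 219 and 202 CPM in vehicle and 117, 166, 122 and 154 CPM at day 5 (-0.57, SE 0.12, 0.0120). The row opposite Nelfa, which pauses RNA polymerase, fell by 0.57 (0.00932), and that opposite Rp9 by 0.63 (0.0124). Others were Ulk4, Fbxl2, Scrn1, Dcaf8, Atcay, Hspbap1, Ccer2 and 4430402I18Rik. The row opposite Kcnq1, a potassium channel, is Kcnq1ot1, a known antisense transcript (3417 ± 579.9 to 2421 ± 349 CPM, -0.50, 0.0212). Some of these rows overlap the named gene by few bases. The overlap was 60 bases for Nelfa (row Nsd2), 110 for Cdkl4 (Gm33373), 121 for Kcnq1 and 123 for Dcaf8 (Pea15a). It was 2631 for 4430402I18Rik (Slc1a1). All 15 were also called with the coding-row scaling, while 2 held when each library was left out in turn.

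The rows with no opposite gene that had the largest fold changes were mostly low in counts. The largest fall among them was Arpp19, a regulator of mitotic entry, at 6.46, 6.07, 6.34 and 5.14 CPM in vehicle and 2.66, 0, 0.972 and 0 CPM at day 5 (-2.58, SE 0.64, adjusted p 0.0219). Lca5, of photoreceptor and other cilia (-1.38), Lage3 (-1.33), the vomeronasal receptor Vmn1r184 (-1.23), the adaptor Sh2b2 (-1.21) and the endoplasmic reticulum protein Erp27 (-1.13) also fell. Rises were Hapln3 (1.96), the receptor kinase Ret (1.93), Fbxo10 (1.90), the mitochondrial assembly factor Coa7 (1.82), the ectoenzyme Enpp1 (1.69) and Zadh2 (1.17), at means of 1.72 to 6.80 CPM in vehicle. Of these 16 rows by the rule, 1 held when each library was left out in turn.

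Both rows of a pair could be tested for 2314 pairs, and in 10 both were called. In 6 of the 10 the rows went in opposite directions. Besides Prc1 and Rccd1, the row of the cold-induced RNA-binding protein Rbm3 fell by 0.97 and that of Rbm3os rose by 0.53. Pairs in this paragraph go by the names of their rows, not of the opposite genes. The row named Arhgdib fell by 0.98 and the row named Pde6h, opposite it, rose by 0.63. The row named Ctnnb1, given above under its opposite gene Ulk4, fell by 0.57. The row named Ulk4, which lies opposite Ctnnb1, rose by 0.38. In 4 pairs both rose, such as the rows named Copa (0.60) and Gm37756 (0.54). The choice of pairs to name followed their values. The rows with the highest means were CT010467.2, Gm37376 and Gm15883. Gm37376 is opposite Malat1, an abundant nuclear RNA, and fell to 18911 ± 948 from 25538 ± 4228 CPM (-0.43, SE 0.11, adjusted p 0.0277).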

How the data were processed

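The authors' deposited table holds raw counts per gene for each library, as whole numbers that had not been normalized. Per the submitters' processing notes, FastQC, Trim Galore, STAR, HTSeq and the mm10 genome were used. Their versions, the annotation and how strands and shared reads were counted are not given in the sources. All columns of the table were mapped by name to labelled samples, and 0 were unused.

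Of 55487 rows, 55227 were found in GENCODE M21, and bedtools 2.31.1 matched each to exons on the other strand overlapping by at least 50 bases. The 8 libraries were fitted alone with edgeR 4.0.16 in R 4.3.3. Rows were filtered with filterByExpr, which left 12574 rows and 98.0% of counts. Scaling was by TMM, the test was the quasi-likelihood F test, and p-values were adjusted over all tested rows by the method of Benjamini and Hochberg at 0.05. Levels are CPM of the TMM-adjusted library size, and library measures were compared by exact two-sided permutation. Alternatives used limma 3.58.1 (voom) and DESeq2 1.42.0. Promoter windows were read with Python 3.11.15.

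Named genes were the 15 largest rises and 15 largest falls opposite protein-coding genes and the 8 of each with no opposite gene. These had to be called, to reach 1 in mean log2 CPM and to have groups that did not overlap, and unnamed gene models were passed over in the second set. Up to 5 members with the smallest p per list, a set of marker genes and the 3 highest rows were added. The comparison and the gene lists were chosen with earlier results of these data known. Tested on simulated data for this comparison, with 12574 rows in 1 run, the fit recovered 56% of 100 rows changed 2-fold and 95% of 100 changed 4-fold. In that run 4.43% of its calls were false. The planted changes were balanced up and down and held no shift between classes of rows. The run therefore does not cover errors from the choice of scaling. Values of 1 listed gene are not reported here.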

Additional observations from a re-analysis of the deposited data

Results flagged for a closer look

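Of 270 groups of 4 libraries that were checked, 12 held a library that stood apart from the other 3 by Dixon's test, which chance does for about 5% of groups. Vehicle replicate 4 had 3227138 total counts, where the other vehicle libraries had 1993550 to 2182730. The same library was high in the rows opposite Krt5 (Gm44323, 553 CPM against 315 to 339), Ckm (A930016O22Rik, 43.1 against 2.15 to 8.98) and Ttn (Gm13938, 33.8 against 2.64 to 7.95). Vehicle replicate 6 was low for Arnt, at 8.89 CPM against 12.5 to 13.2.

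Among day 5 libraries, replicate 5 was low in the row opposite Rp9 (9530077C05Rik, 68.8 CPM against 97.2 to 100.4) and for Vmn1r184 (7.54 against 14.9 to 16.04). Replicate 6 was high for Ret (18.4 CPM against 6.24 to 7.10) and Notch3 (82.2 against 66.04 to 67.1). Replicate 7 was high in the row opposite Nelfa (Nsd2, 157 CPM against 120.2 to 125). It was low in those opposite the respiratory chain genes Cox5a (Gm26631, 168 against 255 to 263) and Ndufb2 (Gm16272, 44.7 against 61.9 to 64.3).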

How the results depend on the processing

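The 656 calls, with 360 rises and 32 falls opposite protein-coding genes and 12 histone and 7 mitosis rises, stayed within 1.5 times under DESeq2 size factors, upper-quartile scaling, no filter, voom and removal of the row CT010467.2. Other settings moved them. With all 12 libraries in the model there were 87 calls, 48 rises, 5 falls and 3 mitosis rises. With the coding-row scaling there were 1186, 148 and 169 falls. A filter of 10 CPM in 4 libraries gave 49 falls. The DESeq2 test gave 994 calls, 601 rises, 54 falls and 4 mitosis rises, with an adjusted p for 9 of the 12 histone and 4 of the 7 mitosis rows. Without day 5 replicates 6 and 8 there were 150 calls, 85 rises, 7 falls and 7 histone rises, and with the muscle level as a covariate 225, 128 and 12 falls. Adding each library's CT010467.2 share to the model left 3 calls, 3 rises, 0 falls, 3 histone and 0 mitosis rises, with 1223 rows under an unadjusted p of 0.05. Leaving out each library in turn gave 94 to 1050 calls, 60 to 651 rises, 2 to 47 falls, 9 to 13 histone and 3 to 7 mitosis rises. With the replicate block, edgeR made 0 calls, so 0 rises, 0 falls, 0 histone and 0 mitosis rises, with 1422 rows under an unadjusted p of 0.05. The groups share numbers 5 and 6 alone, so the block compared them through those libraries only. Its 0 calls therefore do not test the main calls. Deviations of libraries with the same number correlated at 0.017 and -0.090. With so few shared numbers, this cannot decide whether samples were paired, and the labels state no pairing. Direction reversed in the rows opposite Atp2a1 (Rabep2, -1.26 without day 5 replicates 6 and 8, -0.36 with the muscle covariate), Ckm (A930016O22Rik, -3.53 and -1.73) and Ttn (Gm13938, -2.97 and -1.37). The muscle level was the mean log2 CPM over rows opposite skeletal muscle genes, these rows among them. Replicates 6 and 8 were the day 5 libraries high in them, so neither setting is an independent check of these rows. The causes of the other shifts were not tested. Depth limited rows under the floor of 3 counts.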
